A study of Mus musculus with 6 samples.

Results

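Genes of the olfactory progenitor and neurogenesis program were followed in mucosa from mice with and without the receptor transporters RTP1 and RTP2. They were Sox2, Lgr5, Kit, Ezh2, Neurog1, Neurod1, Insm1, Hes6 and Sox11. They were chosen by name, as genes of globose basal cells and neuronal precursors, but with earlier results of these data known. All 9 were found among the 24661 genes that remained when the transcripts of each gene were added together, and all 9 had counts in every mouse.

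The olfactory epithelium makes new sensory neurons throughout life. Horizontal basal cells are its reserve stem cells, and globose basal cells are the cycling progenitors that pass from a Sox2 stage to a Neurog1 and Neurod1 stage before they leave the cycle. Their daughters become immature olfactory sensory neurons (OSNs), which express Gap43 and Gng8, and then mature OSNs, which express Omp and the odorant transduction machinery. RTP1 and RTP2 are proteins of the sensory neurons that help odorant receptors reach the cell surface.

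RNA from the whole olfactory mucosa was sequenced in 3 wild-type mice and in 3 RTP1,2DKO mice that lack both Rtp1 and Rtp2. All 6 mice were labelled C57BL/6 and were taken at postnatal day 21, with 2 males and 1 female in each genotype matched by sex among littermates. The knockout alleles carry cassettes in place of the coding regions, were made in embryonic stem cells of mixed 129 and B6 background and were then backcrossed to C57BL/6, and the genes are lost in every cell. The dissected mucosa holds the epithelium with the tissue around it, so each value below averages over all of its cell types, and fewer cells of a type cannot be told apart from less RNA per cell.

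The libraries held between 31125410 and 41636996 estimated counts. Levels are given as normalized counts, which are estimated counts divided by the size factor of each library, unless another scale is named. Rtp1 had 13543 to 25301 normalized counts in the wild-type mice and 85.5 to 109 in the RTP1,2DKO mice, and Rtp2 had 7157 to 9511 against 26.2 to 58.0, which matches the genotypes on the labels. Of 22152 genes tested, 102 were called higher and 697 lower in RTP1,2DKO at an adjusted p under 0.05. The mature OSN genes Stoml3, Adcy3, Cnga4 and Cngb1 were among those that fell, and the summed counts of the 9 mature OSN markers ran from 169154 to 196041 in the wild-type mice and from 87331 to 93957 in the RTP1,2DKO mice. Markers of the olfactory epithelium were present in every library.

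Hes6 was the progenitor gene that rose in RTP1,2DKO, by 1.68-fold (log2 fold change 0.75, SE 0.14, adjusted p = 0.00887, edgeR's quasi-likelihood test with Benjamini-Hochberg adjustment over all genes). That is 1 of 9 genes called higher, beside 0.46% of all genes tested. None was called lower by this test or by DESeq2's Wald test, while this test called 3.15% of all genes lower. At an unadjusted p under 0.05, 0 of the 9 had a lower value. Of all 22152 genes tested, 2604 passed that unadjusted threshold in either direction, 1015 of them higher. Of the 9 genes, 8 had a log2 fold change above 0, beside 52.6% of all genes, and their median log2 fold change was 0.46 beside 0.02 for all genes. At an unadjusted p under 0.05 in the same test 7 of the 9 were higher, beside 4.58% of all genes. When the replicate number was entered as a block, Insm1 also passed the threshold (log2 fold change 0.57, adjusted p = 0.0244, edgeR), which made 2 of 9 beside 0.885% of all genes.

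The lowest RTP1,2DKO mouse lay above the highest wild-type mouse for 6 of the 9 genes, namely Neurog1, Neurod1, Insm1, Hes6, Kit and Sox11, beside 7.17% of all genes. With 3 mice against 3, the smallest p that an exact permutation test can give is 0.1, and each of these 6 genes reached it. Scaling to total counts in place of size factors left 3 genes apart in this way, Insm1, Hes6 and Kit, beside 4.89% of all genes. For 0 of the 9 genes did all RTP1,2DKO mice lie below all wild-type mice, beside 9.24% of all genes. Wild-type mouse 3 was the lowest wild-type mouse for 5 of the 9 genes, and RTP1,2DKO mouse 1 was the highest of its group for 6.

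**Figure D1:**
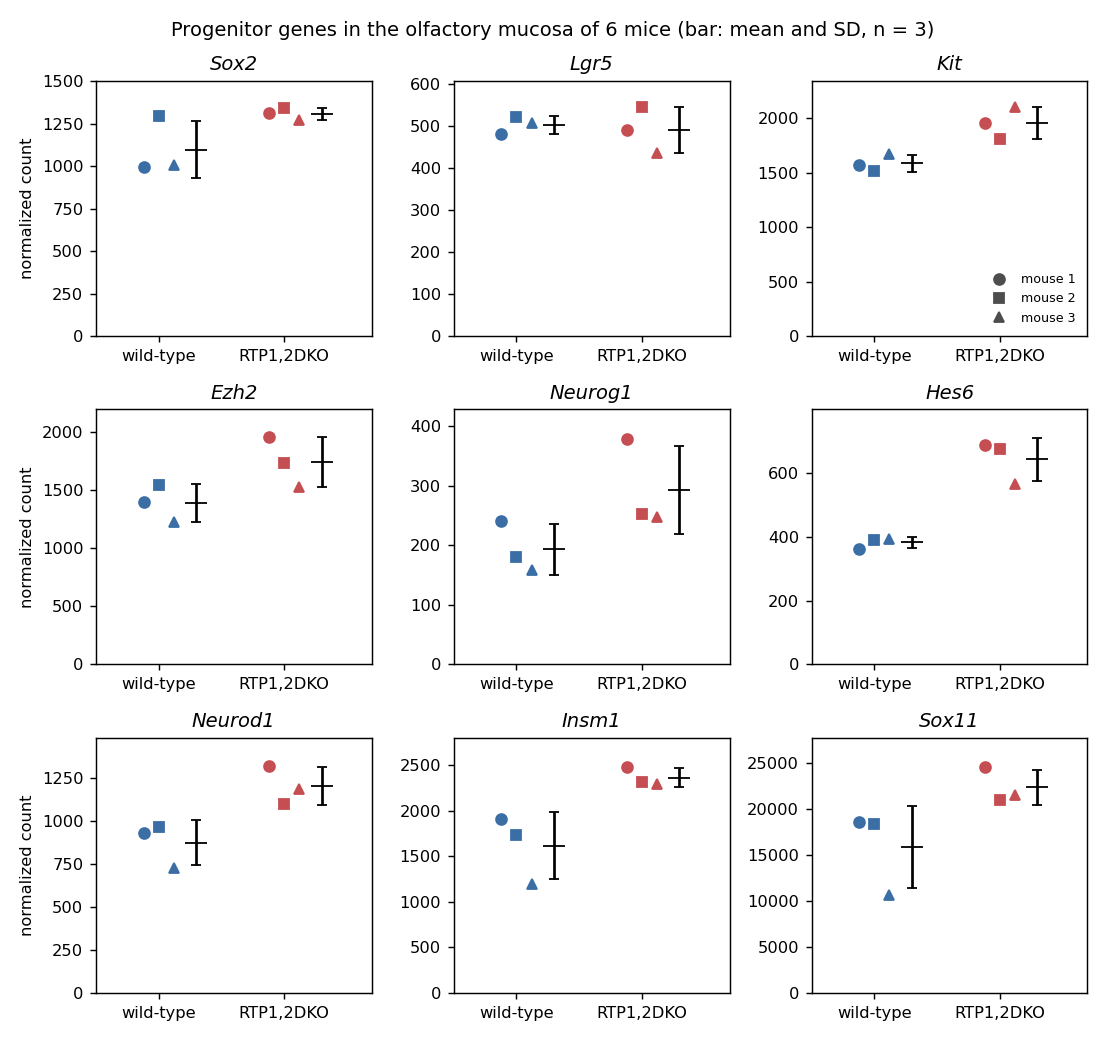
Normalized counts (vertical axes, from 0) of the 9 progenitor genes in each of the 6 mice, where the marker shape gives the mouse number and the black bar gives the mean with its SD. Hes6 shows the widest gap between groups relative to its level, with wild-type mice between 363 and 395 and RTP1,2DKO mice between 566 and 687, whereas the Lgr5 values of both groups lie over each other.

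Sox2, a transcription factor of basal stem cells, globose basal cells and sustentacular cells (mouse GRCm38, GENCODE M21, chr3:34650405-34652461, + strand), had 993, 1294 and 1007 normalized counts in wild-type mice 1, 2 and 3 and 1314, 1342 and 1273 in RTP1,2DKO mice 1, 2 and 3. The groups overlapped, since wild-type mouse 2 lay above RTP1,2DKO mouse 3. The log2 fold change was 0.25 (SE 0.13, 95% interval -0.03 to 0.54) and did not pass the threshold (adjusted p = 0.514, edgeR). Sox2ot, a noncoding RNA whose annotated span contains Sox2 on the same strand, had 86.0 to 136 normalized counts in wild-type and 79.4 to 169 in RTP1,2DKO mice, with a log2 fold change of 0.09 (SE 0.31).

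Lgr5 encodes a receptor for R-spondins that marks cycling globose basal cells (chr10:115450311-115587780, - strand). It had 480, 522 and 507 normalized counts in the wild-type mice and 489, 546 and 435 in the RTP1,2DKO mice. The groups lay over each other, and the log2 fold change of -0.04 (SE 0.14) had a 95% interval from -0.35 to 0.28.

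Kit encodes the receptor of stem cell factor, which is found on neuronal progenitors of the epithelium as well as on mast cells, melanocytes and blood progenitors (chr5:75574916-75656722, + strand). It had 1569, 1519 and 1673 normalized counts in the wild-type mice and 1953, 1809 and 2100 in the RTP1,2DKO mice. The groups did not overlap, but the step was small beside that of Hes6, with a log2 fold change of 0.30 (SE 0.11, adjusted p = 0.274, edgeR).

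Ezh2 encodes the methyltransferase of Polycomb repressive complex 2 (PRC2), which is abundant in dividing progenitors (chr6:47530139-47595341, - strand). It had 1398, 1548 and 1225 normalized counts in the wild-type mice and 1958, 1733 and 1530 in the RTP1,2DKO mice. The lowest RTP1,2DKO mouse lay just under the highest wild-type mouse, and the log2 fold change of 0.32 (SE 0.13) did not pass the threshold (adjusted p = 0.338, edgeR).

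Neurog1, the proneural bHLH factor of the neuron-committed globose basal cell (chr13:56250478-56252163, - strand), was the least counted of the 9 genes. It had 241, 180 and 159 normalized counts in the wild-type mice and 377, 252 and 248 in the RTP1,2DKO mice. RTP1,2DKO mouse 1 stood above the other RTP1,2DKO mice, which lay close to wild-type mouse 1. The log2 fold change was 0.59 (SE 0.22, adjusted p = 0.261, edgeR), and it was 0.37 without RTP1,2DKO mouse 1.

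Neurod1, a bHLH factor that follows Neurog1 (chr2:79452521-79456751, - strand), had 934, 967 and 727 normalized counts in the wild-type mice and 1320, 1101 and 1191 in the RTP1,2DKO mice. The groups were apart, with wild-type mouse 3 the lowest. The log2 fold change was 0.46 (SE 0.14), and the adjusted p of 0.127 (edgeR) missed the threshold.

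Insm1, a zinc finger repressor that drives progenitors toward their last, neuron-producing divisions (chr2:146221921-146225020, + strand), had 1913, 1737 and 1202 normalized counts in the wild-type mice and 2483, 2321 and 2294 in the RTP1,2DKO mice. The RTP1,2DKO mice lay close together while wild-type mouse 3 lay well under its group. The log2 fold change was 0.55 (SE 0.16) with an adjusted p of 0.0891 (edgeR). It passed the threshold with the replicate block, as given above, with DESeq2's Wald test (adjusted p = 0.0236) and without wild-type mouse 1 (0.69, adjusted p = 0.029, edgeR), and it was 0.37 without wild-type mouse 3.

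Hes6, a bHLH factor of the Hes family that opposes Hes1 and promotes neuronal differentiation (chr1:91411483-91414038, - strand), had 363, 390 and 395 normalized counts in the wild-type mice and 687, 675 and 566 in the RTP1,2DKO mice. The wild-type mice differed from each other by less than any of them differed from an RTP1,2DKO mouse. The rise stayed past the threshold when any single mouse was left out, with log2 fold changes of 0.70 to 0.83. With mice 1 and 3 of each group alone, the males by the Xist counts given below, the log2 fold change was 0.73. Its adjusted p of 0.0771 (edgeR) misses the threshold with 2 mice in each group.

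Sox11, a SoxC factor of immature and newly formed neurons with a single coding exon (chr12:27334264-27342574, - strand), was by far the most counted of the 9. It had 18612, 18377 and 10700 normalized counts in the wild-type mice and 24542, 21017 and 21563 in the RTP1,2DKO mice. Wild-type mouse 3 stood well under the other 5 mice, which spanned 18377 to 24542. The log2 fold change was 0.49 (SE 0.19, adjusted p = 0.262, edgeR) and was 0.27 without wild-type mouse 3. Because Sox11 outweighs the rest, the share of all estimated counts that fell on the 9 genes, 0.0468 to 0.0836% in the wild-type mice and 0.083 to 0.107% in the RTP1,2DKO mice, mostly followed Sox11.

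**Figure D2:**
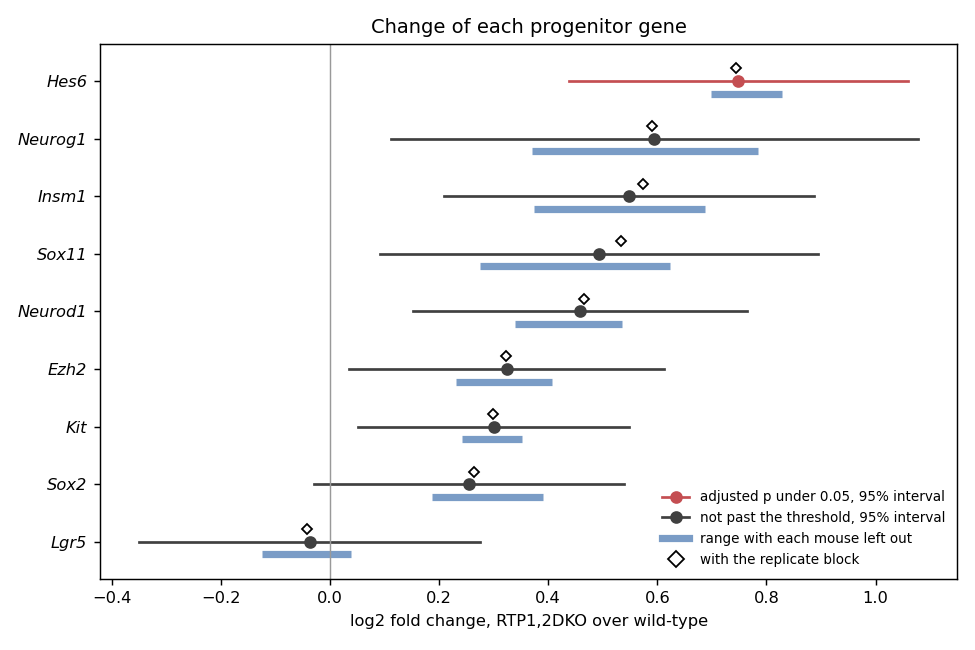
Log2 fold change of RTP1,2DKO over wild-type for each progenitor gene (horizontal axis), with its 95% interval, the range of values with each mouse left out in turn, and the value with the replicate block. Hes6 is highest at 0.75 and the only one past the threshold without the block, and Lgr5 is the only one below 0, at -0.04, with a range that crosses 0 when single mice are left out.

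Promoters were searched for E-boxes and N-boxes, since proneural bHLH factors bind E-boxes and Hes factors bind the N-box. RefSeq windows of 250 bases before a start site (GRCm38.p6) were matched for 7 of the 9 genes, in 9 windows, and Insm1 and Lgr5 had none in the table. The motifs searched on both strands were the E-box CAGCTG, which several proneural factors bind, the E-box CAGATG, which is favoured by Neurog1 and Neurod1, the further E-box form CATATG, and the N-box CACNAG, where N is any base. The E-box CAGCTG was found in 3 of the 9 windows, both of Hes6 and that of Sox11, and in 13.0% of 32851 promoter windows of the table. The windows of Hes6 and Sox11 are shown because they hold all 3 matches, with matched bases in capitals, read 5′ to 3′ on the gene's strand, each ending on the base before the start site.
Hes6 start 1, chr1:91414039-91414288, - strand: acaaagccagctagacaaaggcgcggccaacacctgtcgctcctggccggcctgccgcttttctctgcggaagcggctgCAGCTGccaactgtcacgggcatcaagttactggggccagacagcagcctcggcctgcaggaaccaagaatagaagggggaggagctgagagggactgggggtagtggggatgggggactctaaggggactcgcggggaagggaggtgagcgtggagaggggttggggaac
Hes6 start 2, chr1:91413223-91413472, - strand: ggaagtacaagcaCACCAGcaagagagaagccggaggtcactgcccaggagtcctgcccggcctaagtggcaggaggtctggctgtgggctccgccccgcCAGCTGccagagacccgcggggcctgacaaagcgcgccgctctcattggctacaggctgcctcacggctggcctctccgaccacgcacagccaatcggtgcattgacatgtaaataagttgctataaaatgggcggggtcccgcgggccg
Sox11, chr12:27342719-27342968, - strand: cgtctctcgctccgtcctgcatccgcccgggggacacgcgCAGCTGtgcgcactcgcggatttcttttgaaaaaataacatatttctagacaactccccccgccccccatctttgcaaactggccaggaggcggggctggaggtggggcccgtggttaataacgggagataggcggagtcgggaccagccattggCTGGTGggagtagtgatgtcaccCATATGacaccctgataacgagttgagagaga

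In the first Hes6 window CAGCTG began 171 bases before the start, and in the second 150 bases before it, with an N-box match 237 bases before it. In the Sox11 window CAGCTG began 210 bases before the start, the N-box match 55 and CATATG 32 bases before it. CATATG was in 2 of the 9 windows, of Neurod1 and Sox11, and in 3.46% of all windows, and CAGATG was in 0 of the 9 and in 14.4% of all. The N-box letters were in 5 of the 9 windows and in 36.7% of all windows. The windows of Sox2 and Neurog1 held none of these letters. Both Kit windows, which overlap each other almost wholly, and that of Ezh2 held the N-box letters. A match describes the letters of a window and is not a bound site.

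Levels between genes were compared per length, as FPKM scaled to total counts. In wild-type mice Sox11 was highest at 58.9 FPKM ± 20.0 (SD, n = 3), apart from all other members. Ezh2 (19.2 ± 3.85), Insm1 (19.0 ± 5.28), Sox2 (16.6 ± 3.98), Hes6 (14.2 ± 1.38), Neurod1 (13.2 ± 2.93) and Kit (9.86 ± 0.388) followed, and each of these overlapped its neighbour in the order. Neurog1 (4.86 ± 1.16) and Lgr5 (3.50 ± 0.397) were lowest and overlapped each other. In RTP1,2DKO mice the mean FPKM of Hes6 was 23.4 ± 3.79, against 19.2 ± 1.61 for Sox2, and Sox11 and Lgr5 remained at the ends of the order with 80.3 ± 12.6 and 3.33 ± 0.474.

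**Figure D3:**
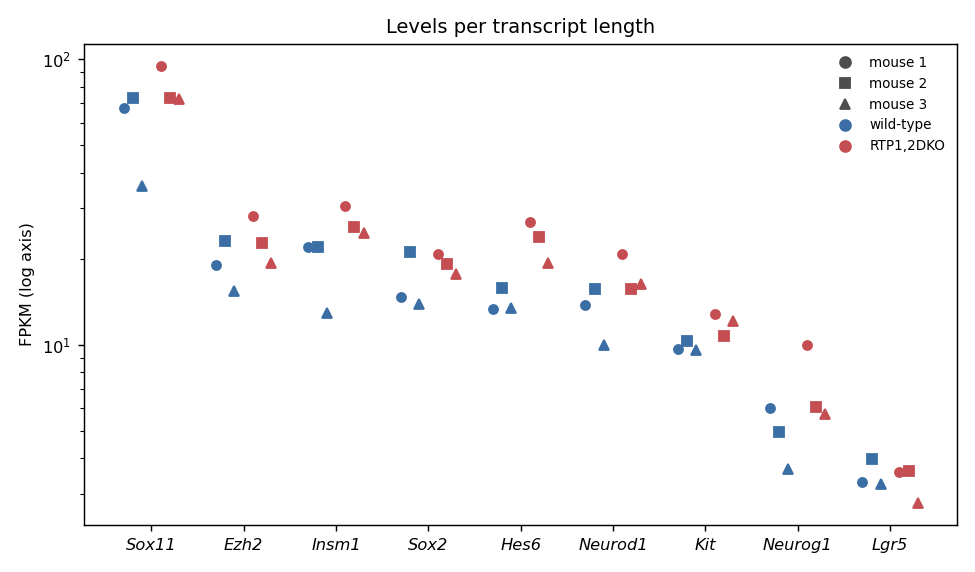
FPKM of each progenitor gene (vertical log axis) in each of the 6 mice, ordered by the wild-type mean, where the marker shape gives the mouse number. Sox11 lies between 36.0 and 94.8 FPKM, above every other gene in every mouse, and Lgr5 between 2.78 and 3.96.

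Kit and Ezh2 were listed with 2 transcripts each and the other 7 genes with 1. The Kit transcripts differ by 16 bases in length. The longer one, of 5205 bases, took 1.05, 69.3 and 0.768% of the Kit counts in wild-type mice 1, 2 and 3 and 1.25, 26.8 and 0.0428% in RTP1,2DKO mice 1, 2 and 3. It was thus high in the mouse numbered 2 of each genotype and under 2% in the other mice. These mice also stood apart in Xist, the RNA of the inactive X chromosome, with 73666 and 66386 normalized counts against 114 to 155 in the others, so the split moved with Xist and not with genotype. By Xist the mice numbered 2 were the 1 female of each genotype, and the part of sex in the split was not tested. The shorter Ezh2 transcript, 12 bases shorter, took 23.3, 8.11 and 0% in wild-type and 0, 19.9 and 4.57% in RTP1,2DKO mice, with no order by genotype or mouse number. The sums over transcripts used above do not depend on these splits.

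**Figure D4:**
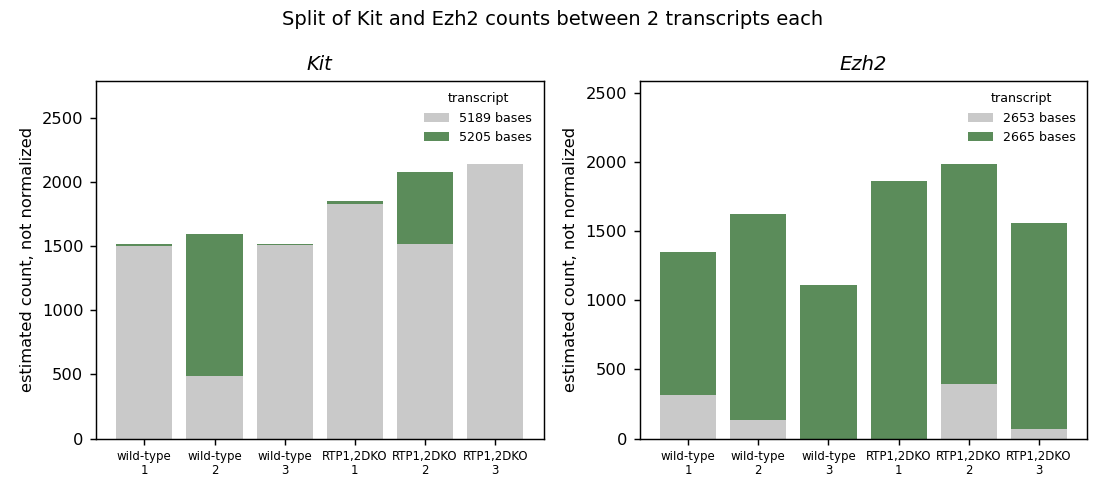
Estimated counts of Kit (left) and Ezh2 (right), not normalized, stacked by transcript for each of the 6 mice. The 5205-base Kit transcript holds 69.3% of the counts in wild-type mouse 2 and 26.8% in RTP1,2DKO mouse 2, and under 2% elsewhere.

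Ratios of normalized counts within a mouse, which do not depend on the scaling of libraries, were compared for 7 pairs of genes. The ratios are of counts, not corrected for length. Hes6 to Sox2 was 0.366, 0.302 and 0.392 in the wild-type mice and 0.523, 0.503 and 0.445 in the RTP1,2DKO mice, so the groups were apart (log2 difference 0.48, exact permutation p = 0.1 two-sided, adjusted over the 7 ratios 0.35). Neurod1 to Omp, a progenitor gene over a mature OSN gene, was 0.0139, 0.0161 and 0.0108 in wild-type and 0.0478, 0.0300 and 0.0301 in RTP1,2DKO mice (log2 difference 1.38, exact permutation p = 0.1, adjusted 0.35), with Omp itself among the genes that fell. The other 5 ratios overlapped between groups. Neurod1 to Neurog1 was 3.88, 5.37 and 4.58 in wild-type and 3.50, 4.37 and 4.80 in RTP1,2DKO mice, and Neurod1 to Gap43 was 0.518 to 0.681 against 0.482 to 0.652. Hes6 to Neurod1 (log2 difference 0.28), Hes6 to Neurog1 (0.15) and Neurod1 to Sox2 (0.20) had exact permutation p of 0.3 to 0.6. No adjusted value passed the threshold, which 3 mice a group cannot reach.

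The likeness of 2 genes was measured as the root mean square difference of their log2 values over the 6 mice, each centred on its own mean. Among the 9 genes Insm1 and Sox11 were closest (0.0832), followed by Neurod1 and Insm1 (0.117), Sox2 and Ezh2 (0.121) and Neurod1 and Ezh2 (0.123), and Neurog1 and Lgr5 were farthest apart (0.434). Of 15421 other genes with a mean of at least 50 normalized counts, those most like Neurod1 were Gas2l3 (0.0438), the immature OSN marker Stmn1 (0.0472) and the kinetochore gene Nuf2 (0.0617). Rfc4, a subunit of the clamp loader of DNA replication, was closest to Insm1 (0.0805) and among the 3 closest to Sox11 (0.0933), with Plk5 and Olfr1535 next for Insm1 and Zfp428 (0.0858) and Cahm ahead of it for Sox11. Hes6 was closest to Olfr578 (0.0863), Gstt1 and Snrnp25, and Neurog1 to Arpp21 (0.0982), Olfr366 and Olfr753-ps1. The genes closest to Kit were Nanp, Trim62 and Ablim1, to Sox2 Sft2d1, Nlrc4 and Icosl, to Lgr5 Pced1a, B3galt2 and Nup35 and to Ezh2 Dclre1b, Nexn and C330027C09Rik, at 0.0149 to 0.0459. With 6 mice and so many candidates, such closeness describes these libraries only.

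The proneural bHLH factors and their Id partners held 13 tested genes, with a median log2 fold change of 0.17. Of these 1 was called higher and 0 lower, beside 0.46% and 3.15% of all genes. Nhlh2, a bHLH factor of newborn neurons, rose from 2397 to 3334 normalized counts in the wild-type mice to 4570 to 4643 in the RTP1,2DKO mice (log2 fold change 0.65, SE 0.13, adjusted p = 0.0145, edgeR). The adjusted p was 0.0534 without RTP1,2DKO mouse 1, 0.0513 without RTP1,2DKO mouse 3 and 0.119 under total count scaling, none of which passes the threshold, and the call held in 11 of 15 other settings. Neurog2 was listed at 0 in all 6 mice.

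In the Notch pathway, which restrains neurogenesis through Hes1, 0 of 23 genes were called in edgeR's quasi-likelihood test in either direction. Over all genes that test called 0.46% higher and 3.15% lower, and 2604 of 22152 had an unadjusted p under 0.05. In lists of this size, 0 calls is near those shares. Of the 23 genes, 1 had an unadjusted p under 0.05, and the median log2 fold change was 0.04. Its most counted genes were the receptor Notch2 (0.05, SE 0.11) and the ligand Jag1 (-0.17, SE 0.12). Hes1 (-0.04, SE 0.16) had 1006 to 1336 against 950 to 1364 normalized counts. For 2 of the 23 genes every RTP1,2DKO mouse lay above every wild-type mouse, beside 7.17% of all genes, and for 0 below. These were Mfng (0.47, SE 0.17), the gene with the unadjusted p under 0.05, and the Hes family gene Hes5 (0.88, SE 0.43). Hes5 was low, with 14.5 to 35.3 against 35.8 to 52.9 normalized counts. Neither was called (adjusted p = 0.224 for Mfng and 0.47 for Hes5, edgeR). Of the Wnt and R-spondin pathway, through which Lgr5 signals, 0 of 22 genes were called by the same test and 1 had an unadjusted p under 0.05, with a median of 0.11, and Ctnnb1 (-0.04) and Lrp6 (0.21) were the most counted. The Kit ligand and adaptor list had 0 of 6 called and 0 with an unadjusted p under 0.05, and the ligand itself, Kitl, had a log2 fold change of 0.04 (SE 0.12) and the adaptor Pik3r1 one of -0.05 (SE 0.13). DESeq2's Wald test also called 0 genes of these lists.

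Among 15 other Sox factors 0 were called by edgeR, which over all genes called 0.46% higher and 3.15% lower. Of the 15, 0 had an unadjusted p under 0.05, beside 2604 of 22152 genes tested, and the median was 0.05. Sox4, the SoxC relative of Sox11, had a log2 fold change of 0.16 (SE 0.14) while the most counted, Sox9, had -0.01. The partners of Ezh2 in PRC2 and the H3K27 demethylases had 0 of 12 called and 0 with an unadjusted p under 0.05, with a median of -0.06. Aebp2 (-0.09) and Rbbp7 (0.22) were the most counted of these, and the subunits Eed (-0.07) and Suz12 (0.00) were near 0. The Insm1 relatives and the LSD1-CoREST corepressor that Insm1 recruits had 0 of 13 called and 2 with an unadjusted p under 0.05, with a median of 0.12. Hdac2 (0.37, SE 0.12) and Kdm1a (0.18) were the most counted of these, and St18 was called higher without wild-type mouse 2 only. DESeq2's Wald test called 0 genes of these 3 lists as well.

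Of 15 further factors of the olfactory lineage, with a median of 0.17, 1 was called higher, beside 0.46% of all genes. It was Cxcr4, a chemokine receptor of globose basal cells and not a transcription factor, with 730 to 1023 normalized counts in wild-type and 1253 to 1652 in RTP1,2DKO mice (log2 fold change 0.63, SE 0.16, adjusted p = 0.0446, edgeR). Leaving out wild-type mouse 2 alone kept this call (adjusted p = 0.0355), and leaving out any other mouse gave 0.0541 to 0.196. With all 6 mice it was 0.195 under total count scaling, 0.0502 with size factors computed without odorant receptor genes and 0.0594 with edgeR's filter on low counts, and the call held in 6 of 15 other settings. With the replicate block Dlx5, a homeobox factor, was called as well (0.49 without the block, adjusted p = 0.0597), which made 2, beside 0.885% of all genes.

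Proliferation genes had log2 fold changes close in size to those of the progenitor genes. Of 14 tested, 1 was called higher and 0 lower, beside 0.46% and 3.15% of all genes. All 14 had a log2 fold change above 0, beside 52.6% of all genes, and the median was 0.48. For 8 of them every RTP1,2DKO mouse lay above every wild-type mouse, beside 7.17% of all genes. Mcm3, a subunit of the replicative helicase, had 287 to 362 normalized counts in the wild-type mice and 493 to 570 in the RTP1,2DKO mice (log2 fold change 0.71, SE 0.15, adjusted p = 0.019, edgeR). Its adjusted p was 0.0788 without wild-type mouse 3, 0.0937 without RTP1,2DKO mouse 2 and 0.0605 without RTP1,2DKO mouse 3, and with all 6 mice it was 0.0772 under total count scaling. The call held in 9 of 15 other settings. The summed counts of the list were 12751 to 15745 in wild-type and 16506 to 20116 in RTP1,2DKO mice. With the replicate block 4 of the 14 were called higher, namely Mcm3, the topoisomerase Top2a and the cyclins Ccna2 and Ccnb1, beside 0.885% of all genes. Leaving out wild-type mouse 2 also gave 4, while leaving out wild-type mouse 3 or RTP1,2DKO mouse 2 gave 0.

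On the neuronal side of the lineage, 2 of 9 immature OSN markers were called higher and 0 lower, with a median of 0.27. Over all genes 0.46% were called higher and 3.15% lower. Gng8, a G protein subunit of immature OSNs, had 169 to 228 normalized counts in wild-type and 330 to 403 in RTP1,2DKO mice (log2 fold change 0.91, SE 0.18, adjusted p = 0.0104, edgeR), and it kept its call with any single mouse left out. Gap43, the growth cone protein, had 1275 to 1802 against 2026 to 2408 (0.58, SE 0.14, adjusted p = 0.0418, edgeR), and it kept its call without wild-type mouse 1 (adjusted p = 0.00626) but had an adjusted p of 0.0549 to 0.171 without any other mouse. With all 6 mice the adjusted p of Gap43 was 0.128 under total count scaling and 0.0514 with edgeR's filter on low counts, and its call held in 6 of 15 other settings. With the replicate block Stmn1 and Dpysl3 were called too, which made 4, beside 0.885% of all genes. Leaving out wild-type mouse 1 gave 3 called markers, and leaving out any other single mouse gave 1. Dcx, the microtubule protein doublecortin, had a log2 fold change of -0.22 (SE 0.20). Of the 9 mature OSN markers 8 were called lower, and the last, Gng13, had a log2 fold change of -0.76 (adjusted p = 0.0857, edgeR). The median was -1.05. Every RTP1,2DKO mouse lay below every wild-type mouse for all 9, beside 9.24% of all genes.

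**Figure D5:**
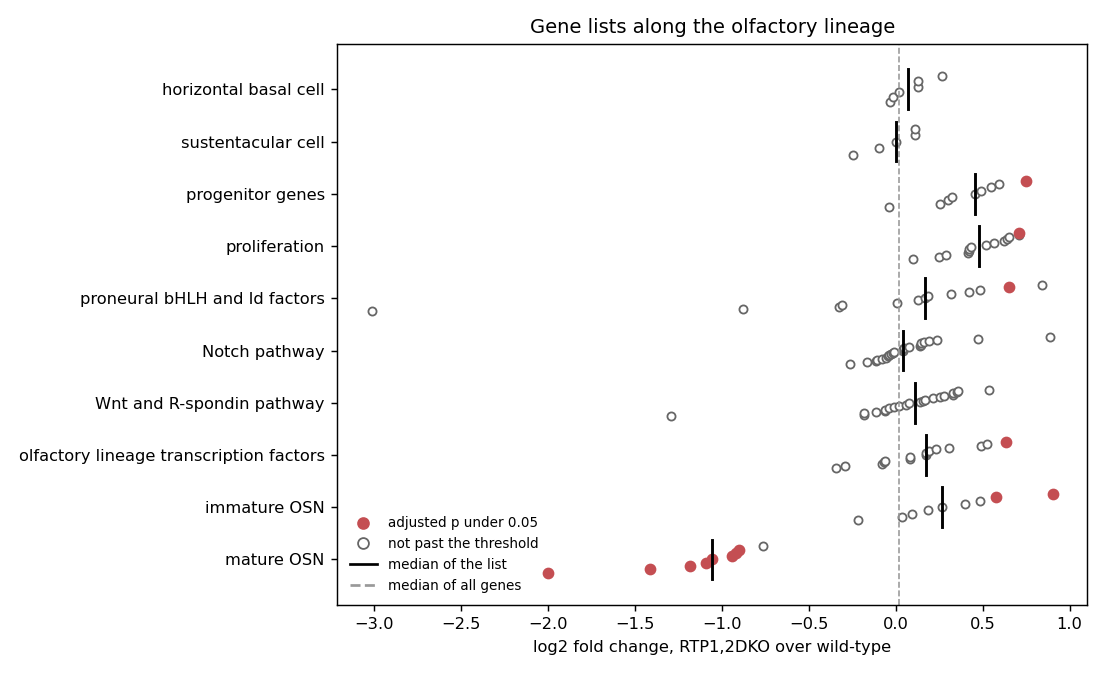
Log2 fold change of RTP1,2DKO over wild-type (horizontal axis) for each gene of 10 lists along the olfactory lineage, with filled points past the threshold, black bars for list medians and a dashed line for the median of all genes at 0.02. The medians are 0.07 for horizontal basal cell markers, 0.46 for the progenitor genes, 0.48 for proliferation, 0.27 for immature OSN and -1.05 for mature OSN markers.

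Markers of the other epithelial cells were not called in either direction in edgeR's test, in DESeq2's Wald test or under the replicate block. Over all genes edgeR's test called 0.46% higher and 3.15% lower, and 2604 of 22152 had an unadjusted p under 0.05. The 6 horizontal basal cell markers had a median log2 fold change of 0.07 with 0 at an unadjusted p under 0.05, with Trp63 at 0.13 (SE 0.13) and Krt5 at 0.26 (SE 0.31), and Krt15 was highest in RTP1,2DKO mouse 3. The 5 sustentacular cell markers, of cells that also express Sox2, had a median of 0.00 with 0 at an unadjusted p under 0.05, with Cyp2a5 at 0.11 and Cyp2g1 at -0.25. The 5 ensheathing glia markers had a median of 0.06 with 1 at an unadjusted p under 0.05, and Fabp7 at 0.06.

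Kit, Ezh2 and the proliferation genes are also expressed outside the olfactory lineage. The 8 mast cell markers were summed to 783 to 956 normalized counts in wild-type and 794 to 881 in RTP1,2DKO mice, mostly from Hdc, while the mast cell genes Cpa3, Mcpt4 and Tpsb2 had at most 63.0 in any mouse. The 5 melanocyte markers were summed to 147 to 166 against 107 to 224, mostly from Tyr, with Pmel at 43.4 or under and Dct at 26.5 or under. The 11 bone marrow progenitor markers were summed to 2251, 5297 and 4547 in the wild-type mice and 9835, 6555 and 4995 in the RTP1,2DKO mice. All 11 had a log2 fold change above 0, beside 52.6% of all genes, with a median of 0.65. None was called by edgeR's quasi-likelihood test or by DESeq2, and Slc4a1 was called by edgeR's exact test. Of the 11, 3 had an unadjusted p under 0.05, beside 2604 of 22152 genes tested. The erythroid genes Alas2 and Slc4a1 made up most of the sum. RTP1,2DKO mouse 1, which held the most of these counts, was also highest for Neurog1, Neurod1, Insm1, Hes6, Ezh2 and Sox11. Without that mouse Hes6 kept its call (log2 fold change 0.70, adjusted p = 0.0436, edgeR). The remaining RTP1,2DKO mice held 6555 and 4995 of these counts, against 2251, 5297 and 4547 in the wild-type mice. Leaving out that mouse thus did not match the groups in these counts. The part of blood progenitors in the values of Hes6, Kit, Ezh2, Neurog1, Neurod1, Insm1 and Sox11 was not tested.

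Markers of brain and of the vomeronasal organ also had counts, and whether these came from neighbouring tissue was not tested. The 6 brain markers were summed to 662 to 976 normalized counts in wild-type and 600 to 671 in RTP1,2DKO mice. Gad1 (-1.18) and Mobp (-2.51) were called lower (adjusted p = 0.0167 for both, edgeR), beside 3.15% of all genes. Of the 6 markers, 2 had a log2 fold change above 0, Gad2 (0.22) and Tbr1 (0.58), and neither was called. Gad2 had 267 to 287 normalized counts in wild-type and 294 to 357 in RTP1,2DKO mice. Of the Gad1 and Mobp calls, 0 or 1 were left when any mouse but wild-type mouse 1 was left out, with none left without RTP1,2DKO mouse 2. The 3 vomeronasal markers had 0 called and 1 with an unadjusted p under 0.05, beside 2604 of 22152 genes tested. It was the channel Trpc2 at 0.46 (SE 0.14), with Vmn2r1 at -0.09. The 3 markers were summed to 1513 to 1821 against 1955 to 2399. Brain tissue also expresses Sox2 and Sox11, and its part in their values was not tested.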

How the data were processed

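Stranded libraries were sequenced on an Illumina HiSeq. Per the deposited files and the study's methods, the authors mapped reads with kallisto (version not given in the sources used here) to UCSC mouse transcripts with extended odorant receptor models, build mm10 per the labels. The deposited values were estimated counts and TPM (not tested here) for 38041 transcripts a mouse, and no depth outside these counts was given. Transcripts were summed by gene and rounded. Genes counted at least 1 time in any mouse were tested with edgeR 4.0.16's quasi-likelihood test (R 4.3.3) on genotype, with DESeq2 1.42.0 size factors and Benjamini-Hochberg adjustment at 0.05. The scripts were tested on simulated data. FPKM used effective lengths that were equal in all files. Same-numbered mice of the 2 genotypes correlated in their deviations from group means (0.139, 0.179 and 0.103 over 18133 genes with a mean of at least 10). Wild-type mouse 1 and RTP1,2DKO mouse 3 came close to this, at 0.0934. The labels do not say what a number marks. The mice numbered 2 were those high in Xist, and so the 1 female of each genotype. The number was used as a pairing block in an alternative fit only. The edgeR p-values set the genotype difference against the spread among these 6 mice within a genotype, estimated with information shared across genes. The 9 genes and all lists were chosen with earlier results of these data known. Named genes are the 9, Rtp1, Rtp2, Sox2ot, up to 4 called genes of each list with the largest changes or otherwise its 2 most counted, and the 3 most alike. Eed, Suz12, Hes1, Hes5, Mfng, Neurog2, Dcx, Krt15, Mcpt4, Tpsb2, Dct, Dlx5, Top2a, Ccna2, Ccnb1, Stmn1, Dpysl3, Gng13, Omp, St18, Gad2, Tbr1 and Xist were added after their values were seen. Some genes that the rule covers enter the counts but are not reported here by name. Positions are from GENCODE M21 (GRCm38) and promoters from RefSeq (GRCm38.p6).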

Additional observations from a re-analysis of the deposited data

How the results depend on the processing

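The counts of calls, over all genes and by list, and the log2 fold changes of the 9 genes, Nhlh2, Cxcr4, Mcm3, Gap43 and Gng8 were recomputed under 15 other settings of scaling, filter, test, block and mice used, of which 1, mice 1 and 2 of each group only, was chosen after seeing the data. Hes6 kept its direction in all 15 and passed the threshold in 14. The progenitor genes called higher were 2 with DESeq2's Wald test, 2 with the replicate block, 1 to 2 with single mice left out and 0 with mice 1 and 3 of each group only, and 0 were called lower throughout. Lgr5 ranged from -0.12 to 0.038 with single mice left out, was above 0 without RTP1,2DKO mouse 3 and was 0.043 with mice 1 and 2 only, and the log2 fold changes of the other 8 genes stayed above 0. Over all genes, the number called higher was 42 with total count scaling, 217 with DESeq2, 196 with the block and 52 to 132 with single mice left out, lowest without each RTP1,2DKO mouse (52, 59 and 65). The number called lower was 459 with mice 1 and 3 only and 533 to 686 with single mice left out, and those called in either direction were 598 to 777. The causes of these shifts were not tested, beyond the smaller number of mice. The block changed no call of the 9 genes but that of Insm1. Levels, ratios, likeness, list medians and sums, and transcript splits were not recomputed under these settings. With 3 mice a group, precision is limited by the number of mice.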
